A study of Mus musculus with 12 samples.

Results

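Egfl6, Col18a1 and Lamb1 are 3 genes of the basement membrane, the thin sheet of extracellular matrix on which epithelial, endothelial, muscle and fat cells rest. They are all 3 rows that match these symbols in a table of 658 genes, and they were chosen by their measured values, for being higher with α-asarone in the fit of these libraries, so their difference between the groups is given below as a description, with no test. Mouse bone marrow mesenchymal stem cells (BMSCs, plastic-adherent stromal cells of marrow, genotype WT) were profiled by bulk poly(A) RNA sequencing in osteogenic medium with α-asarone (6 libraries) or without it, as the control (6 libraries). The labels spell the agent α-Asaronel, and α-asarone is a phenylpropanoid of Acorus plants. Cells of both groups were in DMEM with serum (15%) and penicillin-streptomycin (1%), to which 100 nM dexamethasone, 10 mM sodium β-glycerophosphate and 50 µM ascorbic acid were added. The labels do not give the age and sex of the mice, the dose and time of α-asarone, and whether libraries of a group came from separate animals or cultures, so that p-values cover the spread among these libraries alone, which may be technical.

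A basement membrane is built on a sheet of laminin, a trimer of 1 α, 1 β and 1 γ chain that cells anchor through integrins and dystroglycan. A network of type IV collagen lies over it, and nidogens and heparan sulfate proteoglycans join both. Lamb1 encodes the laminin β1 chain. Col18a1 encodes the α chain of collagen XVIII, a basement membrane collagen that carries heparan sulfate and whose C-terminal fragment is endostatin, an inhibitor of vessel growth. Egfl6 encodes a secreted protein with EGF-like repeats that binds integrins. In marrow such sheets lie under sinusoid endothelium and around fat and Schwann cells, and stromal cells make many of their components.

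The table held part of each library, with total estimated counts over its 658 genes of 914197 to 1224256 with α-asarone and 843595 to 1173845 in controls. Of the 658 genes, 512 had at least 1 TPM (a transcript level scaled to transcript length and library size) in at least 6 libraries and were tested, and all 3 basement membrane genes were among them. The deposited annotation gives the component term basement membrane to 5 of the 658 genes, namely these 3, Timp1 and Serpinf1. None of 13 mesenchymal stromal marker genes was analysed here, so the labelled cell type could not be checked against them. Of 2 tested osteoblast markers, Col1a1 was called lower, at 1208 to 1428 TPM with α-asarone and 1720 to 2103 TPM in controls, and Dlx3 was not called, at 1.30 to 2.44 TPM with α-asarone and 1.32 to 2.05 TPM in controls. Macrophage genes were also present, with Spi1 at 154 to 177 TPM with α-asarone and 136 to 151 TPM in controls. In bulk libraries, more cells of a type and more RNA per cell cannot be told apart.

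The promoters of the 3 genes are shown because the genes were picked as a group and because Col18a1 has separate start sites for its transcripts. RefSeq on GRCm38.p6 holds 4 windows for them, each of 300 bases with 250 before the start site and 50 from it on, written 5′ to 3′ on the strand of the gene. Egfl6 is at chrX:166585667-166585966 (minus strand), Col18a1 upstream at chr10:77166481-77166780 (minus strand), Col18a1 downstream at chr10:77113656-77113955 (minus strand) and Lamb1 at chr12:31265043-31265342 (plus strand). Capitals mark the GC box GGGCGG and the CCAAT box CCAAT on either strand.
Egfl6: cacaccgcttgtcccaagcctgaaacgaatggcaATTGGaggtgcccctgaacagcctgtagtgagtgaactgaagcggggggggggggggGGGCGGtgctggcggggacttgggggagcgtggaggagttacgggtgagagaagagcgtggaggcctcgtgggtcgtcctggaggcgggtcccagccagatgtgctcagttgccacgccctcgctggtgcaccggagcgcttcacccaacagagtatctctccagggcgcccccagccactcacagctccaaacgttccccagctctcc
Col18a1 upstream: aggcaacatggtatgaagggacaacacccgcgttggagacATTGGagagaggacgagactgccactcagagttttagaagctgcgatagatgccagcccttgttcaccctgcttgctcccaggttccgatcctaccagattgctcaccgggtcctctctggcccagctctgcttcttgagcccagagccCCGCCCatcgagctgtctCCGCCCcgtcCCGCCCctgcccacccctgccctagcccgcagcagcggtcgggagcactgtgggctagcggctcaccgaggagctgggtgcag
Col18a1 downstream: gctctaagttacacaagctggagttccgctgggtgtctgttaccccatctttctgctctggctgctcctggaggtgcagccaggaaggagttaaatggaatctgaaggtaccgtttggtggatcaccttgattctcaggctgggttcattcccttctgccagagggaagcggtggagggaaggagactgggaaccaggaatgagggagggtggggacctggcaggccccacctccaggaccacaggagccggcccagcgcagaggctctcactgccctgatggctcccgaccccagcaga
Lamb1: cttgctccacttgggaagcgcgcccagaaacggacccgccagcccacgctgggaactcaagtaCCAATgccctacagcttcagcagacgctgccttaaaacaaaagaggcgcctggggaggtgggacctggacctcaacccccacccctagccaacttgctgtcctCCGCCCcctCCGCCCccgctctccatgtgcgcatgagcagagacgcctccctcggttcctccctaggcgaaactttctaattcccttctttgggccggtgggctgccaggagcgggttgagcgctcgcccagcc

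Both boxes were found in 3 of the 4 windows, and neither in the downstream window of Col18a1. The GC box occurred 1 time in the Egfl6 window, 3 times in the upstream Col18a1 window and 2 times in the Lamb1 window. It is common, with a match in 64.3% of 540 windows of the tested genes and 35.7% of all 32851 windows. The CCAAT box was matched 1 time in each of these 3 windows and lies in 39.4% of windows of tested genes. The TATA box TATAAA was in none of the 4 windows and in 5% of those of tested genes. The series title names PPARG, a nuclear receptor that binds as a dimer to repeats of AGGTCA. The hexamer AGGTCA was in none of the 4 windows, against 70 of the 540 windows of tested genes, and the full DR1 element, a direct repeat of it with 1 base between, was in 13 of all 32851 windows and in none of the 540. Likewise the glucocorticoid receptor hexamer AGAACA and the AP-1 site TGACTCA were in none of the 4, against 12.8% and 3.15% of windows of tested genes. All motifs were searched on both strands, and DR1 holds AGGTCA by construction. These are matches of letters within 300 bases and say nothing about binding.

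Egfl6 (ENSMUSG00000000402, chromosome X, 166523007 to 166585720, minus strand, GRCm38) differed the most between the groups. Its level was 52.3 TPM at the lowest, 54.3 at the median and 57.9 at the highest with α-asarone, and 18.8, 22.3 and 24.0 TPM in controls in the same order. Every α-asarone library lay above every control library, with a gap of 28.2 TPM between the lowest of the first and the highest of the second. The means were 54.8 ± 1.92 TPM with α-asarone against 21.9 ± 1.85 TPM in controls (SD, n = 6 each), a 2.51-fold higher count by the fit of all genes (log2 fold change 1.33 ± 0.05 SE). The values rest on 433 to 1629 counts a library, all of them whole, and no other annotated gene overlaps Egfl6. By size of rise, Egfl6 ranked at 3 of the 512 tested genes.

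Col18a1 (ENSMUSG00000001435, chromosome 10, 77052178 to 77166548, minus strand) differed by less. It ranged from 43.2 TPM over a median of 50.5 to 54.6 TPM with α-asarone, and from 31.8 over 35.5 to 38.4 TPM in controls. The groups did not overlap here either, but the gap was only 4.82 TPM. The means were 49.7 ± 4.32 TPM with α-asarone against 35.1 ± 2.56 TPM in controls (SD, n = 6 each), with a log2 fold change of 0.52 ± 0.04 (SE), or 1.43-fold. Its counts, 1134 to 2839 a library, were whole in all 12 libraries. Slc19a1 and Gm7775 overlap the gene on the opposite strand, and whether counting used strand is not stated in the labels, so reads from the opposite strand cannot be told apart.

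Lamb1 (ENSMUSG00000002900, chromosome 12, 31265234 to 31329644, plus strand) was the most abundant of the 3 and the least different. It had 90.9 TPM at the lowest, 98.9 at the median and 102 at the highest with α-asarone, against 88.4, 90.4 and 92.9 TPM in controls. The groups overlapped, since α-asarone replicate 3, at 90.9 TPM, lay within the control range, while the other 5 α-asarone libraries lay above every control. The means were 98.1 ± 4.10 TPM with α-asarone against 90.7 ± 1.77 TPM in controls (SD, n = 6 each), so that TPM was 8.17% higher on the scale of means and the log2 fold change 0.12 ± 0.02 (SE). Counts were 3690 to 6044 a library and whole throughout, and no other gene overlaps it.

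**Figure D1:**
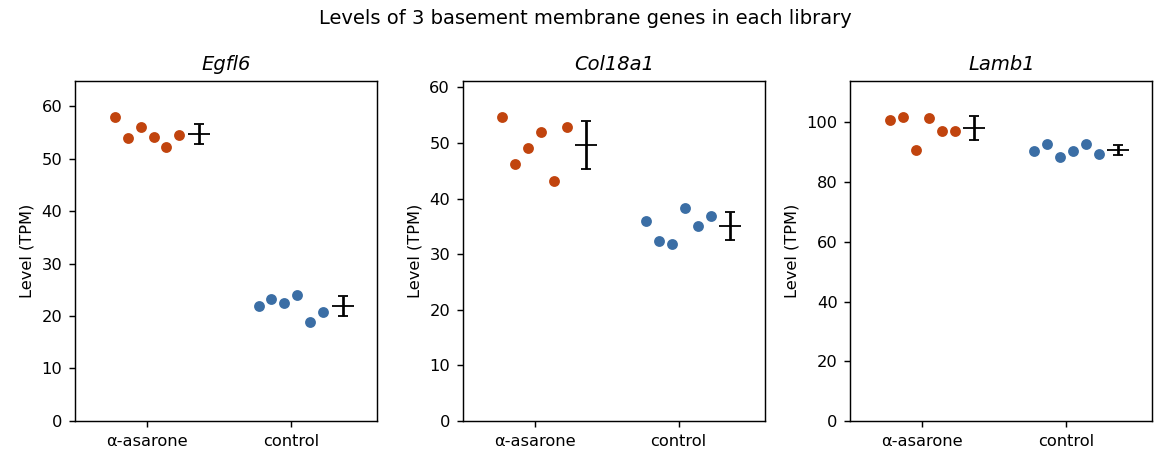
Level in TPM (vertical axes, from 0) of Egfl6, Col18a1 and Lamb1 in the 6 α-asarone libraries (orange, replicates 1 to 6 from left to right) and the 6 control libraries (blue), with mean and SD as black marks. The groups are 28.2 TPM apart for Egfl6 and 4.82 TPM apart for Col18a1, and overlap for Lamb1.

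All 3 genes lay among the 66 genes called higher by edgeR's quasi-likelihood test at a Benjamini-Hochberg adjusted p under 0.05, which are 12.9% of the 512. In both directions 155 genes, or 30.3%, were called. The choice of the genes used this contrast, so nothing is read from that count. Likewise 2 of the 3 were free of overlap between the groups, as were 14.3% of tested genes, with 5.86% higher and 8.4% lower. The median log2 fold change of all tested genes was 0.00, and that of the 66 genes called higher was 0.18. Egfl6 and Col18a1 were above the second value and Lamb1 was below it, at rank 83 of 512. The calls over all genes divide differently when libraries are scaled by the totals of the table and not by TMM factors, which was tried once the values had been seen, with 67.2% of 189 calls higher against 42.6% of 155. Under that scaling the log2 fold changes were 1.37 for Egfl6, 0.56 for Col18a1 and 0.16 for Lamb1.

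**Figure D2:**
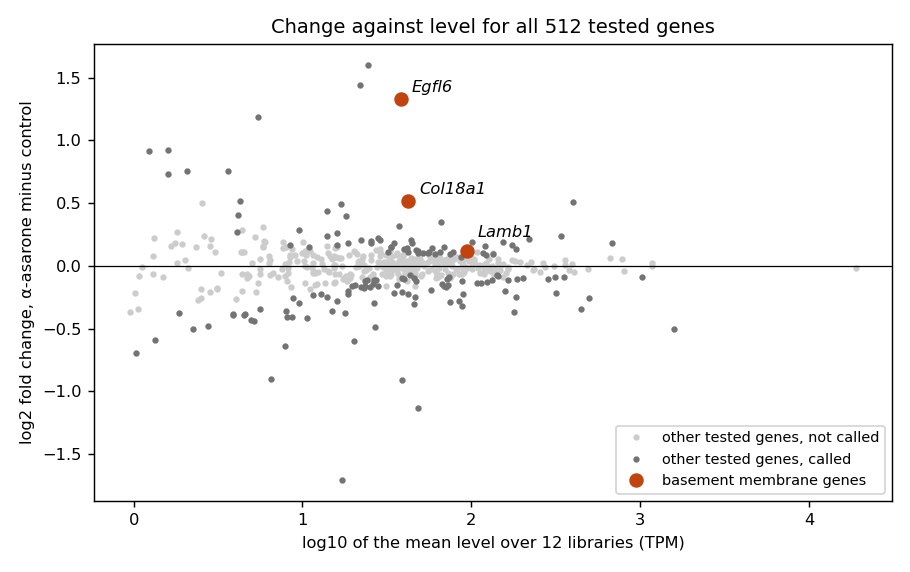
Log2 fold change, α-asarone minus control (vertical axis), against log10 of mean TPM over 12 libraries (horizontal axis) for the 512 tested genes, with Egfl6, Col18a1 and Lamb1 in orange, other called genes in dark grey and genes not called in light grey. Egfl6 (1.33) and Col18a1 (0.52) stand above most genes of like level, while Lamb1 (0.12) is at rank 83 by size of rise.

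Because the changes were unequal, the proportions of the 3 transcripts differed between the groups. The ratio of Egfl6 to Lamb1 in a library was 0.531 to 0.616 with α-asarone and 0.203 to 0.265 in controls, both genes being measured in TPM. The ratio of Col18a1 to Lamb1 was 0.445 to 0.545 with α-asarone and 0.350 to 0.424 in controls. Egfl6 exceeded Col18a1 in every α-asarone library, at 1.03 to 1.21 times its TPM, and stayed under it in every control library, at 0.537 to 0.716 times. The order of levels was thus Lamb1, Egfl6, Col18a1 with α-asarone and Lamb1, Col18a1, Egfl6 in controls. With α-asarone, however, the means of Egfl6 and Col18a1 were 54.8 and 49.7 TPM with SDs of 1.92 and 4.32, and their ranges overlapped. Summed over the 3 genes, TPM was 203 ± 7.58 with α-asarone and 148 ± 3.31 in controls (SD, n = 6 each). Egfl6 made up 59.9% of that difference, Col18a1 26.6% and Lamb1 13.5%.

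Whether the transcripts behind a gene differed is a readout that the choice of genes did not use. The estimated count divided by TPM is proportional to the mean length of the transcripts to which the reads were assigned. On 16 other genes with 1 transcript in GENCODE M21, whole counts and at least 100 counts in every library, this ratio gave the annotated length with a median error of at most 0.0012%, so the deposited TPM used full transcript lengths of a like annotation. Egfl6, with 1 annotated transcript of 2704 bases, came out at 2704 bases in all 12 libraries. Lamb1, with 7 annotated transcripts, of which those of 5784 and 5557 bases are full-length, came out at 5754 to 5763 bases with α-asarone and 5748 to 5763 bases in controls.

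The mean length of Col18a1 varied more from library to library than that of Lamb1. GENCODE M21 holds 5 transcripts of it, 3 of them full-length. The one of 5063 bases starts at 77166548, in the upstream window above, while those of 4791 and 5595 bases start at 77113705 and 77113946, in the downstream window. The mean length was 4890 ± 82.4 bases with α-asarone and 4852 ± 167 bases in controls (SD, n = 6 each), with ranges of 4760 to 4996 and 4584 to 5068 bases. The α-asarone range lay within that of the controls. In 3 libraries, 1 with α-asarone and 2 controls, the mean was shorter than the shortest full-length transcript, so that part of the level was assigned to the short models of 675 and 717 bases if the authors' annotation holds the same transcripts. The starts cannot be told apart from gene totals alone.

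In the test of this length, relative to the median of all tested genes in the library, no difference between the groups passed the threshold. For Col18a1 the difference was 0.02 on the log2 scale (exact 2-sided permutation test, p = 0.426, adjusted p = 0.545 over 3 genes), with a 95% interval from −2.36% to 4.88%. For Lamb1 it was 0.01 (exact permutation p = 0.504, adjusted p = 0.545), with an interval of −0.98% to 1.85%. Egfl6 has 1 transcript whose length cannot vary. Its value of 0.01 (exact permutation p = 0.545, interval −1.07% to 1.91%) thus measures only how the median of the other genes moved, and says nothing about Egfl6. Lamb1 differed from that median by nearly the same amount (0.0062 against 0.0059 for Egfl6), so this comparison says little about Lamb1. The adjustment over 3 genes includes the Egfl6 test. Taking Egfl6 as the ruler, a choice made after seeing the data, Col18a1 gave 0.01 (exact permutation p = 0.628, adjusted p = 0.634) with an interval from −2.45% to 4.44%. Lamb1 gave 0.00 (exact permutation p = 0.634, adjusted p = 0.634) with an interval from −0.09% to 0.15%, narrower than against the median of all tested genes.

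**Figure D3:**
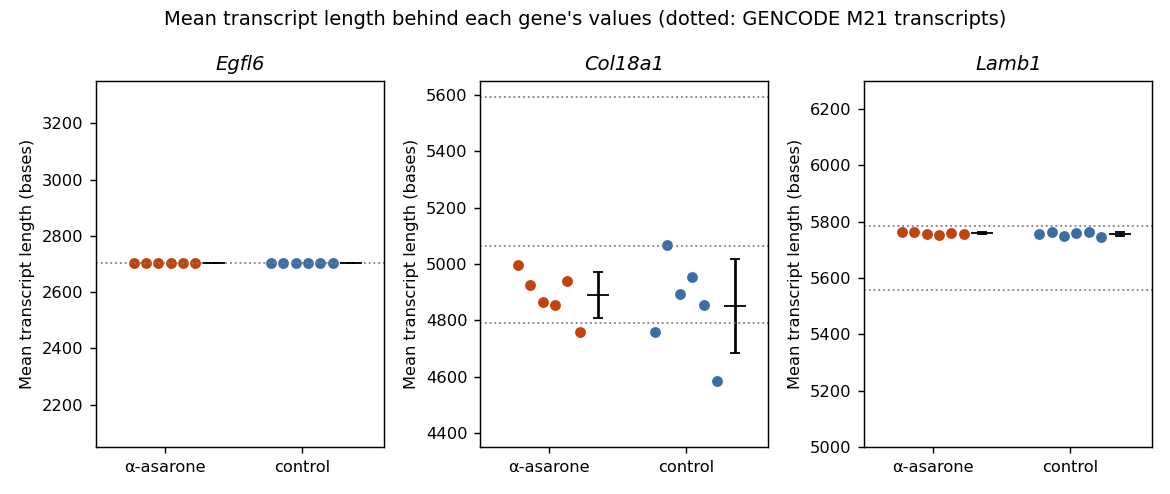
Mean length in bases of the transcripts behind each gene's values (vertical axes, of equal span and not starting at 0), computed from the ratio of count to TPM, in 6 α-asarone libraries (orange) and 6 control libraries (blue), with mean and SD in black and GENCODE M21 transcript lengths dotted. Egfl6 sits on its 2704 bases and Lamb1 just under 5784, while Col18a1 spreads from 4760 to 4996 bases with α-asarone and 4584 to 5068 bases in controls.

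Within a group, where the difference between the groups plays no part, no relation between the 3 genes passed the test. The closest pair was Egfl6 and Col18a1 in the α-asarone libraries, with Pearson r = 0.75 and Spearman rho = 0.83 over 6 libraries (exact permutation p = 0.075 and 0.058, adjusted p = 0.45 and 0.35 over 6 relations). Without the 2 libraries farthest from the median of Egfl6, r was −0.03, so on log2(TPM + 1) the relation rests on those libraries, while on TMM-scaled counts r was 0.78 with all 6 libraries and 0.96 without the 2 farthest. In the controls the same pair had r = −0.03 and rho = 0.09 (exact permutation p = 0.964 and 0.919, adjusted p = 0.992 and 0.919). Without the 2 farthest libraries r was −0.85 on log2(TPM + 1) but 0.66 on TMM-scaled counts, so its sign depends on the scaling. Egfl6 and Lamb1 had r = −0.06 and rho = −0.20 with α-asarone (exact permutation p = 0.894 and 0.714, adjusted p = 0.992 and 0.919). In controls they had r = −0.32 and rho = −0.09 (exact permutation p = 0.544 and 0.919, adjusted p = 0.992 and 0.919). Col18a1 and Lamb1 had r = 0.17 and rho = 0.14 with α-asarone (exact permutation p = 0.749 and 0.803, adjusted p = 0.992 and 0.919) and r = −0.01 and rho = 0.09 in controls (exact permutation p = 0.992 and 0.919, adjusted p = 0.992 and 0.919). Without the 2 farthest libraries these 4 values of r were −0.97, 0.49, 0.83 and −0.62 in that order, and on TMM-scaled counts −0.26, 0.29, −0.03 and −0.32.

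**Figure D4:**
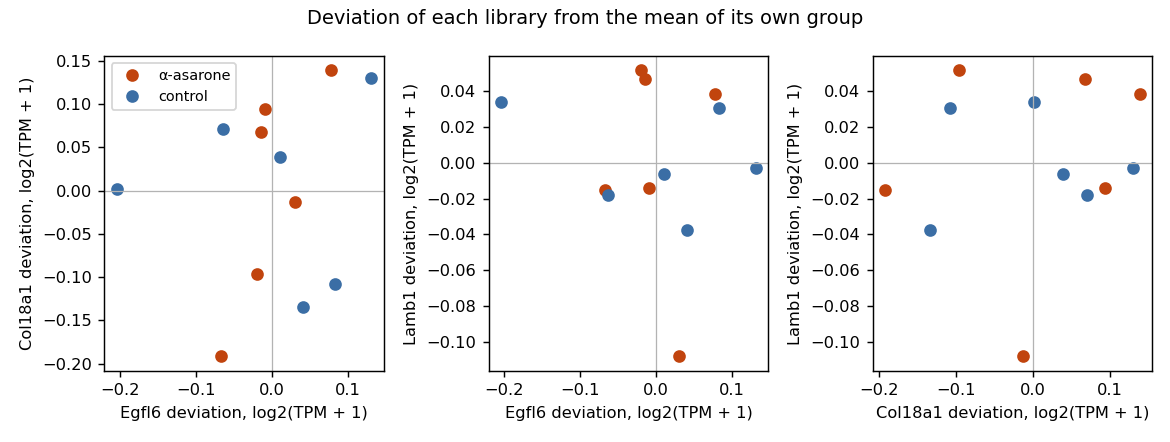
Deviation of each library from the mean of its own group, in log2(TPM + 1), for the 3 pairs of Egfl6, Col18a1 and Lamb1, with α-asarone libraries in orange and controls in blue. No pair lines up along a diagonal in both groups, and the largest r is 0.75 for Egfl6 and Col18a1 with α-asarone.

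The genes most like each of the 3 were named by Pearson r of log2(TPM + 1) over the 12 libraries, as a description. Over all libraries, where r follows the group difference, Egfl6 was most like Angptl4 (r = 0.98), Plin4 (0.96) and Ramp2 (0.96), which encode an inhibitor of lipoprotein lipase, a lipid droplet coat protein and an accessory protein of adrenomedullin receptors. Col18a1 was most like Mmd (0.93), Egfl6 (0.92) and Tcirg1 (0.92), the last a subunit of the vacuolar proton pump. Lamb1 was most like the glutamine transporter gene Slc1a5 (0.89), the splicing factor gene Sf3a1 (0.86) and the transcription factor gene Mef2d (0.86). After each group's mean was subtracted, other genes came first. They were Chaf1a (0.69), Sync (0.66) and Grik5 (0.63) for Egfl6, Bcap31 (0.91), Cd36 (0.90) and Kat2b (0.73) for Col18a1, and Scpep1 (0.90), Sf3a1 (0.87) and Itga5 (0.82) for Lamb1. Itga5 encodes the α5 chain of a fibronectin-binding integrin. Only Sf3a1 was among the nearest 3 of the same gene both ways, and all points share the scaling of their library.

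Genes of the basement membrane or around it were looked up in lists. These cover structural components, receptors, folding and cross-linking factors, proteases with their inhibitors, and secreted proteins with EGF-like repeats. The lists hold 242 genes, of which 16 were in the table. Of the 13 tested besides the 3 genes above, 2 were called higher (12.9% of all tested genes were) and 4 lower (17.4%), with 7 not called. Among these 13 only Timp1, Serpinf1 and Mmp11 carry a basement membrane term in the deposited annotation. The counts therefore describe the lists and not basement membrane genes as such. The other laminin chains, type IV collagens, nidogens, perlecan and agrin were not analysed here.

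Among structural components, the 1 other gene tested was Col6a1, which encodes a chain of the beaded filament collagen that lies against basement membranes. It had 704 to 755 TPM with α-asarone and 630 to 654 TPM in controls, without overlap, and rose by a log2 fold change of 0.18 ± 0.02 (SE, edgeR adjusted p = 5.1e-07). Under quantile scaling of TPM the change of Col6a1 was 0.05 (limma adjusted p = 0.22), which ends the call.

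Of 4 tested receptor genes none was called higher (12.9% of all tested genes were) and 2 were called lower (17.4% were). Their median log2 fold change was −0.34 against 0.00 over all tested genes. Both the median and the count of 2 include Itga3, whose TPM did not follow its counts, as given below. Ddr1, a collagen-activated receptor tyrosine kinase gene, had 20.1 to 25.6 TPM with α-asarone and 28.1 to 36.4 TPM in controls, and fell by 0.49 on the log2 scale (SE 0.04, edgeR adjusted p = 3.88e-10). Bcam, which encodes a receptor of the laminin α5 chain, had 3.68 ± 0.445 TPM with α-asarone against 4.44 ± 0.423 TPM in controls and was not called (log2 fold change −0.27, edgeR adjusted p = 0.063). The call of Bcam was gained under quantile scaling and without α-asarone replicate 3 or 6 (adjusted p = 0.030, 0.045 and 0.041). Itga5 had 91.9 ± 5.35 TPM with α-asarone against 87.7 ± 3.92 TPM in controls (log2 fold change 0.07, edgeR adjusted p = 0.083). It was called higher under quantile scaling, with the replicate block, with table totals, and without α-asarone replicate 3 or control replicate 2 (adjusted p from 0.0097 to 0.044).

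Itga3, which encodes the α3 chain of a laminin-binding integrin, had counts and TPM that disagreed. Its counts were 225 to 338 with α-asarone and 266 to 438 in controls, and it fell by 0.41 on the log2 scale of counts (SE 0.07, edgeR adjusted p = 3.37e-05). Its TPM, however, was 6.56 to 10.5 with α-asarone and 7.89 to 10.9 in controls, and limma on log2(TPM + 1) gave a change of −0.16 (adjusted p = 0.27). The mean transcript length of Itga3, computed after these values were seen and not tested, was 3246 to 4861 bases with α-asarone and 4235 to 4861 bases in controls. In α-asarone replicates 1, 3, 4 and 5 it was at most 3862 bases, shorter than in any control. GENCODE M21 gives Itga3 full-length transcripts of 4636, 4697 and 4861 bases and short ones of 549 to 826 bases.

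The 2 tested factors of folding and cross-linking moved apart. Loxl3, a lysyl oxidase family gene, had 230 to 247 TPM with α-asarone and 192 to 212 TPM in controls and rose by 0.22 ± 0.03 (SE, edgeR adjusted p = 5.47e-08) on counts that had fractions in all 12 libraries. Fkbp10, which encodes a collagen chaperone, had 149 to 164 TPM with α-asarone and 194 to 214 TPM in controls and fell by 0.37 on the log2 scale (SE 0.03, edgeR adjusted p = 8.22e-12) on counts that had fractions in 8 libraries.

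None of the 4 tested genes of proteases and inhibitors was called by edgeR (30.3% of all tested genes were). No edgeR p among them was under 0.05 before adjustment either. Mmp14, the gene of a membrane-bound matrix metalloproteinase, had 352 to 371 TPM with α-asarone and 344 to 373 TPM in controls. Mmp11, a secreted relative, had 11.3 ± 0.781 TPM with α-asarone against 12.5 ± 1.75 TPM in controls (log2 fold change −0.15, edgeR adjusted p = 0.16). The inhibitor gene Timp1 had 680 to 874 TPM with α-asarone and 752 to 868 TPM in controls. Serpinf1, the gene of pigment epithelium-derived factor, an inhibitor of vessel growth, had 1113 to 1274 TPM with α-asarone and 993 to 1237 TPM in controls. Timp1 and Serpinf1, which carry the same component term as the 3 genes, thus had log2 fold changes of −0.04 and 0.00 (edgeR adjusted p = 0.50 and 0.997).

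Of the 2 other tested genes of secreted proteins with EGF-like repeats, both latent TGF-β binding proteins, Ltbp1 fell and Ltbp2 did not pass. Ltbp1 had 65.6 to 67.8 TPM with α-asarone and 80.2 to 85.0 TPM in controls (log2 fold change −0.29 ± 0.02 SE, edgeR adjusted p = 9.6e-11). Ltbp2 had 130 to 152 TPM with α-asarone and 129 to 163 TPM in controls (log2 fold change −0.03, edgeR adjusted p = 0.42). Both share the EGF-like repeats of Egfl6, and neither was called in its direction. Besides Timp1, Serpinf1 and Mmp11, the deposited annotation names basement membrane in the process terms of Ramp2, Cav2 and Hpn. Ramp2 rose (33.6 to 41.2 TPM with α-asarone, 9.33 to 15.0 TPM in controls, 3.04-fold, edgeR adjusted p = 4.64e-15, counts with fractions in 9 libraries, Vps25 overlapping on the same strand), while Cav2 had 45.5 to 50.6 TPM with α-asarone and 42.6 to 52.5 TPM in controls and Hpn reached at most 2.27 TPM with α-asarone against 2.11 TPM in controls, neither of them called.

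**Figure D5:**
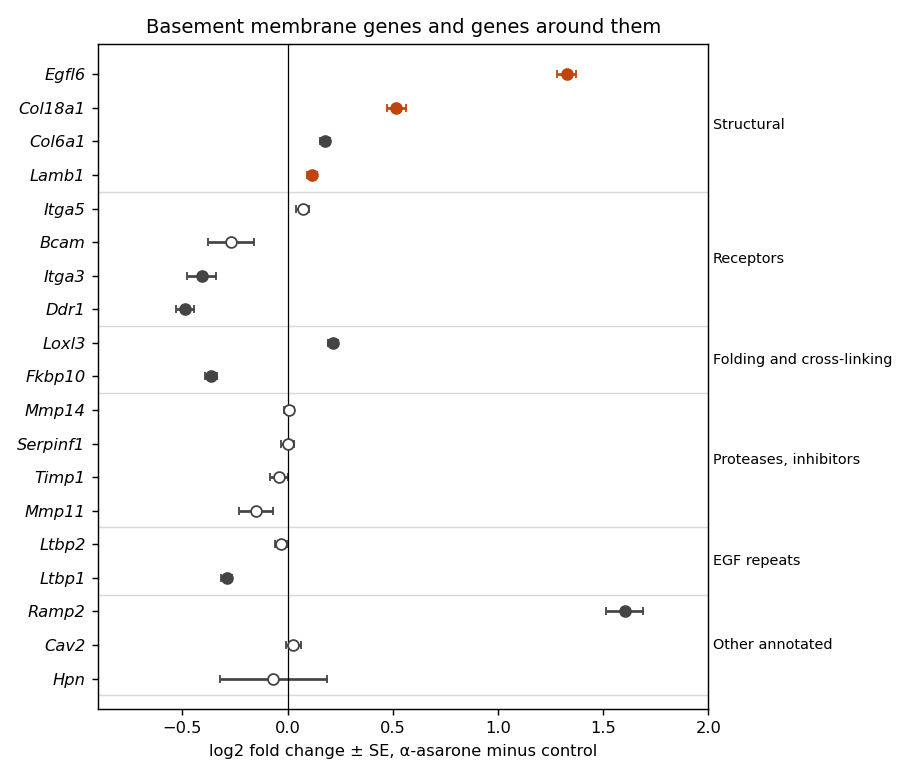
Log2 fold change ± SE, α-asarone minus control (horizontal axis), of Egfl6, Col18a1 and Lamb1 (orange, picked for this difference) and of the 16 tested genes of the lists or with a basement membrane term (dark grey, filled where called by edgeR and open where not). Apart from the picked genes, the called genes right of 0 are Col6a1, Loxl3 and Ramp2, with Ramp2 farther right than Egfl6. The called genes left of it are Ddr1, Itga3, Fkbp10 and Ltbp1. The 4 protease and inhibitor genes were not called, and Mmp11, at −0.15, lies farthest from 0 among them.

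Some markers of cell types also differed between the groups, and their part in the values above was not tested. Of all tested genes 12.9% were called higher and 17.4% lower. Of 5 tested adipocyte markers 4 were called higher (Plin4, Lipe, Cd36, Angptl4) and Pparg was not called, at 36.4 to 45.2 TPM with α-asarone and 38.9 to 44.2 TPM in controls, with a summed level of 423 to 538 TPM with α-asarone and 361 to 417 TPM in controls. Of 5 tested macrophage and osteoclast markers 2 were called higher (Spi1, Cfp), 2 lower (Itgb2, Acp5) and Clec10a was not called. Their summed level was 992 to 1162 TPM with α-asarone and 901 to 995 TPM in controls. Each of these sums leans on its most abundant gene. For adipocytes this was Cd36, at 315 to 428 TPM with α-asarone and 282 to 334 TPM in controls. In the macrophage list it was Cfp, at 428 to 550 TPM with α-asarone and 307 to 367 TPM in controls. Itgb2 went the other way, at 263 to 283 TPM with α-asarone and 286 to 300 TPM in controls. So did Acp5, at 25.1 to 38.4 TPM with α-asarone and 57.9 to 78.4 TPM in controls. Of 3 lymphocyte markers Cd3g and Vpreb3 were at 0 in every library, and Cd79a was at 0 with α-asarone and at most 0.099 TPM in controls. The 1 smooth muscle marker, Cnn1, lay at 6.82 to 9.97 TPM with α-asarone and 21.8 to 30.3 TPM in controls. Of 3 endothelial markers in the table, Ramp2 was called higher with the values above, and Vwf and Esam, below the filter, reached at most 0.816 and 1.16 TPM with α-asarone and 1.33 and 0.867 TPM in controls. The Schwann cell marker Ngfr reached at most 1.505 TPM with α-asarone against 0.832 TPM in controls, and the epithelial marker Cdh1 0.109 TPM with α-asarone against 0.197 TPM in controls.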

How the data were processed

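Per the file headers, the deposited table gives each gene an estimated count and a TPM level in each library. The submitters' processing notes name the builds GRCm38 and mm10, while aligner and quantifier are not named there. Per the labels' protocols, RNA had integrity numbers above 7.0 and libraries a mean insert of 300 bp. The table analysed here holds 658 genes, so its totals are not library depths. No 2 replicates agreed within sampling noise (chi-square per degree of freedom 2.24 to 11.2 over 30 pairs).

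Estimated counts were rounded and fitted with edgeR 4.0.16 (glmQLFit and glmQLFTest, TMM factors, no covariate) in R 4.3.3 on genes with at least 1 TPM in at least 6 libraries, with Benjamini-Hochberg adjustment over 512 genes and a threshold of 0.05. Only the edgeR fit was tested on simulated counts, and the other steps were not. Limma 3.58.1 and DESeq2 1.42.0 were alternatives. Length was estimated from the ratio of estimated count to TPM by a Theil-Sen line over genes with 1 transcript, and its intervals come from the exact permutation test. Values are means ± SD unless given as ranges. Named genes were the 3 members, tested list genes, genes with a basement membrane term, and the 3 nearest by correlation. Itga3's length was looked at after its values were seen. The members and lists were chosen with earlier results of these data known.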

Additional observations from a re-analysis of the deposited data

Results flagged for a closer look

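In 44 groups of 6 libraries (levels of the 3 basement membrane genes and of the 16 genes around them, and mean lengths of Col18a1, Lamb1 and Itga3), the gap between an extreme value and the next one, over the whole range, was set against Dixon's critical value, which chance passes in about 1 of 20 groups, or 2.2 here. In 2 groups a value stood apart, both in control replicate 2. Ltbp1 had 85.0 TPM there, with the other controls at 80.2 to 81.9 TPM. Serpinf1 had 993 TPM there, with the other controls at 1154 to 1237 TPM. Control replicate 2 also had the lowest total estimated count, 843595. Against control replicates 1, 3, 4, 5 and 6 its chi-square per degree of freedom was 6.79, 10.7, 11.2, 3.97 and 7.91. The other control pairs reached at most 5.07. No value of Egfl6, Col18a1 or Lamb1 stood apart in this way.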

How the results depend on the processing

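Egfl6, Col18a1 and Lamb1 kept their direction under every alternative fixed with the design, with log2 fold changes of 1.29 to 1.33, 0.47 to 0.52 and 0.11 to 0.12 when scaling, filter, tool or pairing was changed and 1.28 to 1.36, 0.48 to 0.55 and 0.11 to 0.14 with 1 library left out. These genes were picked for this contrast in the same libraries, so only the spread of sizes is read from these refits. Genes called over the whole table numbered 116 to 173 (138 to 152 with 1 library left out) against 155. Of the lists, structural genes called went to 0 of 1 under quantile scaling, and receptor genes called to 1 with limma on log2(TPM + 1) and to 1 with limma on log2(TPM + 0.1), against 2 (1 to 3 over all such settings), and 2 to 4 with 1 library left out (4 without α-asarone replicate 3). Over the 16 single genes around the members 322 of 334 values from other settings stayed on their side of the threshold, 4 lost the call, 8 gained it and 0 reversed. The replicate numbers showed no clear pairing of the libraries, with correlations of same-numbered deviations from −0.003 to 0.128 and 2 of 6 libraries closest to their own number. These few values cannot exclude pairing. With the replicate block 168 genes were called, and the log2 fold changes were 1.33 for Egfl6, 0.52 for Col18a1 and 0.12 for Lamb1. Relations within groups, none of them called, changed sign with the scaling, at r = 0.29 for Egfl6 and Col18a1 and 0.27 for Col18a1 and Lamb1 in controls on TMM-scaled counts. With 1 library left out, r ranged from 0.52 to 0.85 (α-asarone) and −0.55 to 0.18 (control) for Egfl6 and Col18a1, from −0.50 to 0.45 and −0.63 to 0.41 for Egfl6 and Lamb1, and from 0.0028 to 0.39 and −0.74 to 0.37 for Col18a1 and Lamb1. The cause of these changes was not tested.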
